A study of Homo sapiens with 8 samples.

Results

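The genes described here are those of the calpain protease system: CAPNS1, CAPN1, CAPN2, CAPN7 and CAPN15 of the calpain family and CAST, the gene of the inhibitor calpastatin. They were found by gene symbol and are 6 of the 58302 genes of the count table. They were chosen by a rule that names the siAPEX1 against siCTRL contrast, and with its values known, so their values in that contrast are given as a description, without a test. The number of genes that passed the filter on low counts and entered the fit was 5368, and 5 of the 6 members were among them. CAPN15 was not. CAPN1 had 23 to 48 counts in the libraries labelled siCTRL and 6 to 11 in those labelled siAPEX1, so it passed mainly through the group in which it was higher.

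Calpains are calcium-dependent cysteine proteases of the cytosol that cut a limited number of sites in their substrates rather than degrading them. The conventional enzymes, calpain 1 and calpain 2, each pair a catalytic subunit (encoded by CAPN1 or CAPN2) with the common small regulatory subunit encoded by CAPNS1, and calpastatin binds and blocks these heterodimers. They are known for cleaving proteins of focal adhesions and of the cytoskeleton during cell spreading and migration. CAPN7 and CAPN15 are catalytic family members that lack the domain through which the conventional enzymes pair with the small subunit.

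RNA-seq was carried out on A549, an established human lung adenocarcinoma line of epithelial origin, after transfection with small interfering RNA. There were 4 libraries labelled siAPEX1 (an siRNA against APEX1, the gene of the base excision repair endonuclease APE1) and 4 labelled siCTRL (a control siRNA), with no other allele or agent in either group. The study asked which miRNAs respond to silencing of APE1. Libraries were made from total RNA with a small RNA kit modified to catch miRNA precursors too, so the counts of a messenger RNA are those of its fragments in such a library. In these libraries a transient transfection in 1 line is the only model, although the study also used other cell lines elsewhere. The labels do not say whether replicates were separate cultures, although the study calls them biological replicates. The p-values therefore measure the spread between these samples, which may be technical.

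Between 1639796 and 1949886 reads were counted on genes in the libraries labelled siCTRL and between 1348386 and 1619500 in those labelled siAPEX1. APEX1, the target, had 51, 61, 64 and 47 counts in replicates 1 to 4 labelled siCTRL and 21150, 19470, 27916 and 20767 in those labelled siAPEX1, which goes against the label. A count per gene cannot tell reads of the transcript from reads of a transfected siRNA of the same sequence. The study also probed APE1 protein by Western blot after silencing, which is not analysed here. Every direction below is therefore that of the libraries labelled siAPEX1 against those labelled siCTRL. Of the markers of epithelial cells, all 6 had counts in every library labelled siCTRL. EPCAM, the lowest, had 8 to 9 counts there and 0 to 5 in libraries labelled siAPEX1. The markers of alveolar type 2 cells summed to at most 1 count per library. The immune list summed to at most 10, the fibroblast list to at most 14 and the endothelial list to at most 1, with CD3E, PECAM1, CDH5 and SFTPA1 at 0 in every library.

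All 6 genes lie on the forward strand of GRCh38. CAPNS1 spans chr19:36139953-36150353 with 11 exons in its canonical transcript, CAPN1 chr11:65180566-65212006 with 22 and CAPN2 chr1:223701593-223776018 with 21. CAPN7 spans chr3:15206152-15252916 with 21 exons and CAPN15 chr16:527712-554636 with 14. CAST is the longest, at chr5:96525267-96779595 with 32 exons. No member shares exon bases with another gene of its own strand. Genes on the opposite strand share 5.77% of the exon bases of CAPN1, 5.96% of those of CAPN15 and 5.07% of those of CAST. Without a statement of the strand that was counted, reads in those stretches cannot be assigned. The partners had few counts: CAPN1-AS1 had 0 to 2 in any library, and ERAP1, next to CAST, had 8 to 13 in libraries labelled siCTRL and 3 to 8 in those labelled siAPEX1. ENSG00000261691 and ENSG00000249180, which also share exon bases with CAPN15 and CAST, had at most 1 count in any library, as did ENSG00000270760 and ENSG00000251314, which overlap CAPNS1 and CAST without sharing an exon base. MIR5587 and MIR3176, inside CAPN15, were at 0.

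Promoter windows from RefSeq (GRCh38.p14, 250 bases before to 50 after a transcript start, forward strand) were found for all 6 members, 14 windows in all. The sequence TGAGTCA, the binding motif of AP-1, was searched on both strands and stood in 3 of them, 1 each of CAPNS1, CAPN2 and CAST. Of all 35116 windows, 4.95% held it. AP-1 was not the only motif searched. The GC box, NRF1, CCAAT box, ETS, CRE, E-box, ARE, TATA, TEAD and YY1 motifs were searched in the same windows. These 3 windows are shown because FOS and JUN, which encode AP-1 subunits, are among the genes measured below. Capitals mark TGAGTCA or its reverse complement TGACTCA.
CAPNS1, chr19:36139816-36140115: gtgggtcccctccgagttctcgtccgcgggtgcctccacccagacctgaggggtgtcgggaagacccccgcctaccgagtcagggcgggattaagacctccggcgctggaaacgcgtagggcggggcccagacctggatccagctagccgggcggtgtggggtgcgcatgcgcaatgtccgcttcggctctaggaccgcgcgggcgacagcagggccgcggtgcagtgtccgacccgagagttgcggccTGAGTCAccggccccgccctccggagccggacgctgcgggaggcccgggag
CAPN2, chr1:223701347-223701646: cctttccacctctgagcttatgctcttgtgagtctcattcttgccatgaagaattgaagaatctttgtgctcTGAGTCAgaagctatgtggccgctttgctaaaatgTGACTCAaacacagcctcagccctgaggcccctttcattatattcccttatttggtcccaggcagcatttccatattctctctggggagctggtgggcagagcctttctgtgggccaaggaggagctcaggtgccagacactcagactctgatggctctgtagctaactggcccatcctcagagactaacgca
CAST, chr5:96743352-96743651: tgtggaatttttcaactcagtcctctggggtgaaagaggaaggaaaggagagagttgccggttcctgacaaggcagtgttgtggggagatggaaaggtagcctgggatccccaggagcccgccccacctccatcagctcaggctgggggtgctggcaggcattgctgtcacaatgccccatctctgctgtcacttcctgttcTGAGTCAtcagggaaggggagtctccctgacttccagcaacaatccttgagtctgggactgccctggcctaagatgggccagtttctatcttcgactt
In the CAPNS1 window the motif began 1 base before the start, and the same window held the NRF1 palindrome GCGCATGCGC, found in 1.24% of windows. In the CAPN2 window, which is 1 of 2 listed for that gene, it was present in both orientations. Its first copy stood 178 bases before the start. In the CAST window, which is 1 of 5 listed for that gene, it began 48 bases before the start. The CAPNS1 window was rich in G and C (72.3%, with 35 CpG) whereas those of CAPN2 (50.3%, 2 CpG) and CAST (55.7%, 3 CpG) were not. Without the motif, the other CAPN2 window had 79.7% G and C and 45 CpG, and the other CAST windows had 47.3% to 74.3%. The median window had 58.7% G and C and 14 CpG. The windows of CAPN1, CAPN7 and CAPN15 did not hold these letters. The GC box GGGCGG was present in 10 of the 14 windows and in 44.95% of all windows. A match is a description of the letters and not of a bound site.

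CAPNS1, the regulatory subunit shared by both conventional calpains, had the widest gap between the groups of the 5 members tested. Its counts were 124, 138, 136 and 112 in replicates 1 to 4 labelled siCTRL and 11, 20, 11 and 20 in those labelled siAPEX1. Every library labelled siAPEX1 was thus below every library labelled siCTRL. As CPM, counts divided by library sizes that TMM factors had adjusted, these were 62.4, 66.8, 63.0 and 62.0 against 9.06, 16.2, 7.93 and 15.9. The means were 63.5 ± 2.23 and 12.3 ± 4.39 CPM (SD, n = 4 each), and the control libraries were close together. The fitted log2 fold change was −2.38 (SE 0.169, 95% interval −2.72 to −2.04), which is 5.19-fold lower, and it ranked 10 from the lowest of the 5368 genes tested. In bulk samples, fewer cells with a transcript and less of it per cell cannot be told apart.

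CAPN1, the catalytic subunit of calpain 1, had 48, 23, 34 and 26 counts in the libraries labelled siCTRL and 11, 6, 8 and 10 in those labelled siAPEX1. The groups did not overlap, but replicate 1 of siCTRL stood highest. The means were 16.4 ± 5.54 and 6.91 ± 1.93 CPM (SD, n = 4 each), with a log2 fold change of −1.24 (SE 0.276, 95% interval −1.80 to −0.68). Without siCTRL replicate 1 it was −0.995, short of the threshold of 1 used for a call.

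CAPN2, the catalytic subunit of calpain 2, had 114, 138, 105 and 83 counts in the libraries labelled siCTRL and 48, 62, 49 and 55 in those labelled siAPEX1. Once scaled, the groups overlapped: replicate 2 labelled siAPEX1 (50.3 CPM) was above replicates 3 (48.7 CPM) and 4 (45.9 CPM) labelled siCTRL. The means were 54.7 ± 9.44 and 42.2 ± 6.39 CPM (SD, n = 4 each). The log2 fold change was −0.38 (SE 0.137, 95% interval −0.66 to −0.10), the smallest in size of the 5.

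CAST, the inhibitor, had the most counts of the members in every library except replicate 2 labelled siAPEX1. Its counts were 264, 313, 335 and 329 in the libraries labelled siCTRL and 93, 60, 109 and 89 in those labelled siAPEX1. The groups did not overlap, and replicate 2, where CAPN2 had 62 counts, was the lowest of the libraries labelled siAPEX1. The means were 155 ± 20.3 and 68.6 ± 13.7 CPM (SD, n = 4 each), a log2 fold change of −1.17 (SE 0.120, 95% interval −1.41 to −0.93) and 2.25-fold lower.

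CAPN7, a catalytic member known to bind ESCRT-III proteins, stood on the other side of 0. It had 14, 13, 10 and 16 counts in the libraries labelled siCTRL and 10, 21, 11 and 12 in those labelled siAPEX1. The groups overlapped, with replicate 2 labelled siAPEX1 (17.0 CPM) well above the rest of its group. The means were 6.71 ± 1.75 and 10.7 ± 4.30 CPM (SD, n = 4 each), and the log2 fold change of 0.68 (SE 0.290, 95% interval 0.09 to 1.26) was 0.39 without that library. CAPN15, an atypical calpain with zinc fingers, had 11, 8, 4 and 7 against 5, 5, 7 and 6 counts, or 3.78 ± 1.505 and 4.50 ± 0.487 CPM (SD, n = 4 each), and the groups overlapped. In a fit to all 22272 genes with at least 1 count its log2 fold change was 0.17 (SE 0.417, 95% interval −0.64 to 0.99). The interval included 0, so the sign of a difference within it could not be told at this depth.

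**Figure D1:**
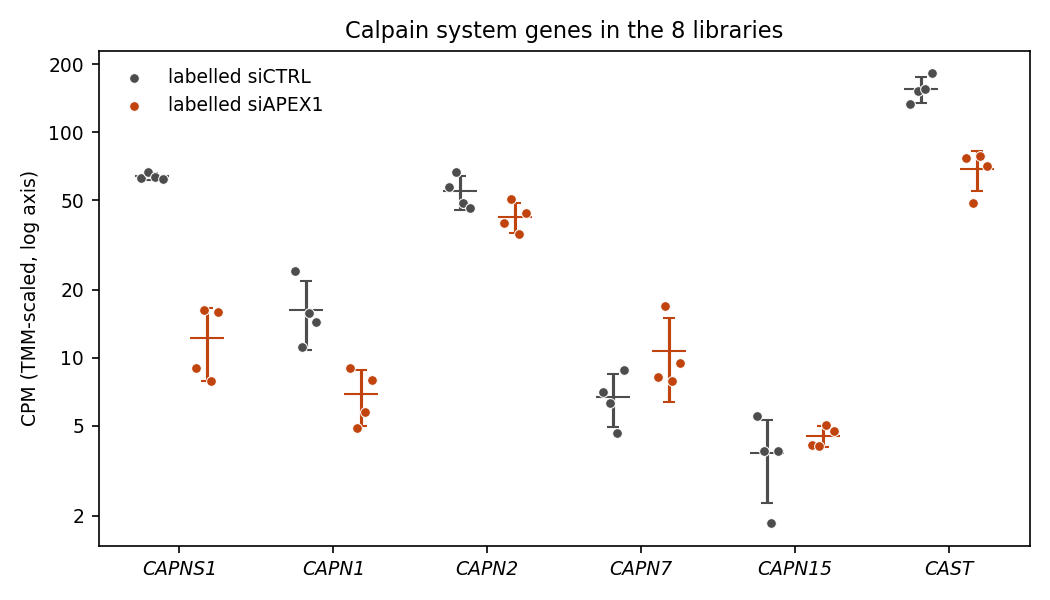
CPM of the 6 calpain system genes in each library on a log axis, grey for libraries labelled siCTRL and orange for those labelled siAPEX1, with the mean and SD of 4 libraries. The groups are apart for CAPNS1, CAPN1 and CAST and overlap for CAPN2, CAPN7 and CAPN15.

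A gene was called when its log2 fold change was 1 or more in size and its Benjamini-Hochberg adjusted p in edgeR's quasi-likelihood test was 0.05 or less. By this rule CAPNS1, CAPN1 and CAST, 3 of the 5 members tested, were called lower and none higher. CAPN2 met the limit on adjusted p only, and CAPN7 met neither. Of all genes tested, 9.28% were called in either direction and 5.68% were called lower. The same 3 members had every library labelled siAPEX1 below every library labelled siCTRL, as had 14.9% of all genes tested. Since the members were chosen with this contrast known, these counts are a description only. Of the 6 epithelial markers, 5 (KRT7, KRT8, KRT18, KRT19 and EPCAM) had fewer unscaled counts in every library labelled siAPEX1 than in any labelled siCTRL. CDH1 did not (23 to 27 against 22 to 38). In CPM, CDH1 was higher in every library labelled siAPEX1 (17.5 to 30.8) than in any labelled siCTRL (12.5 to 13.6). The libraries labelled siAPEX1 also had fewer counts in total. The share of all genes with fewer unscaled counts was not computed. Unscaled, the list summed to 1024 to 1379 counts per library labelled siCTRL and 278 to 358 per library labelled siAPEX1. The part of this in the member values was not tested.

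**Figure D2:**
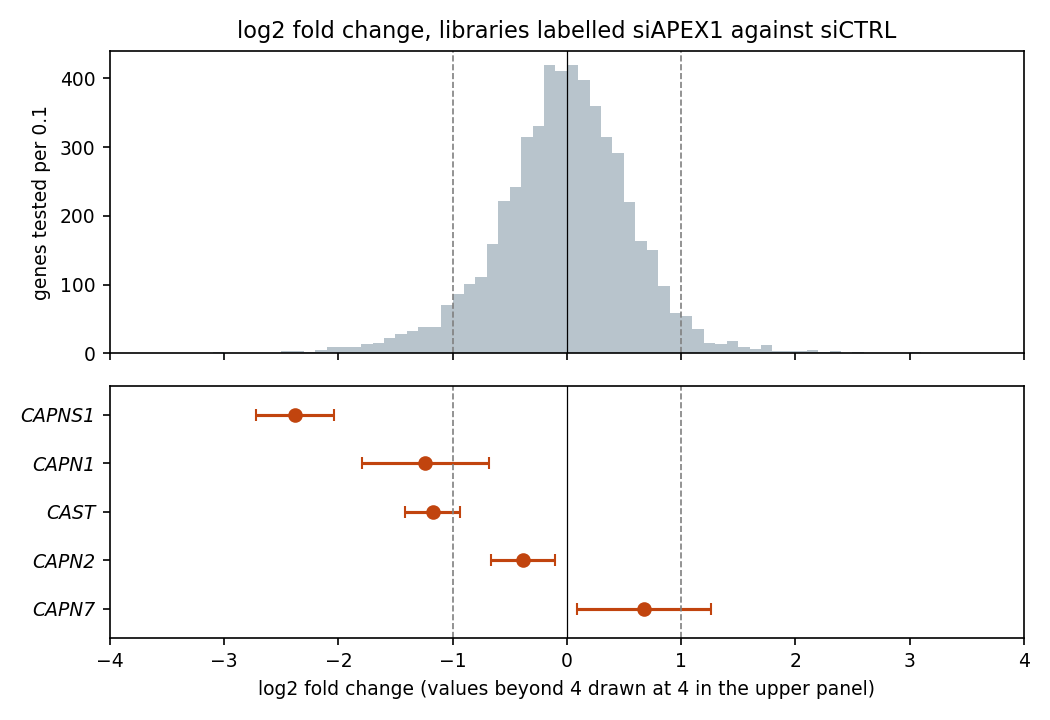
Upper panel, number of genes tested per 0.1 of log2 fold change. Lower panel, log2 fold change of the 5 members tested with 95% intervals, with dashed lines at 1 and −1. CAPNS1 lies at −2.38, in the far lower tail of all genes, and the interval of CAPN1 and of CAST crosses −1.

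To compare levels between members, CPM were divided by the length of the exons of each gene. Per kb of exon, CAPNS1 was the highest in the libraries labelled siCTRL at 20.5 ± 0.720 CPM per kb, followed by CAST (11.6 ± 1.52), CAPN2 (6.37 ± 1.10), CAPN1 (2.18 ± 0.738), CAPN7 (1.198 ± 0.313) and CAPN15 (0.473 ± 0.188; SD, n = 4). With this length, neighbours in this order did not overlap between libraries, except CAPN1 and CAPN7. In the libraries labelled siAPEX1 the order was CAST (5.14 ± 1.03 CPM per kb), CAPN2 (4.92 ± 0.745), CAPNS1 (3.96 ± 1.42), CAPN7 (1.91 ± 0.768), CAPN1 (0.921 ± 0.257) and CAPN15 (0.563 ± 0.0609; SD, n = 4). Here CAST, CAPN2 and CAPNS1 overlapped each other and CAPNS1 overlapped CAPN7.

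CAPNS1 made up 48.4% ± 1.46 of the summed CPM per kb of the 6 genes in the libraries labelled siCTRL and 22.3% ± 5.91 in those labelled siAPEX1 (SD, n = 4 each). The share of CAPN2 was 15.01% ± 2.33 and 28.2% ± 1.92 and that of CAPN7 2.82% ± 0.698 and 10.8% ± 3.51, while that of CAST was 27.5% ± 3.45 and 30.1% ± 8.40 (SD, n = 4 each). A share must rise for some members when it falls for another. The length of a gene with many isoforms is uncertain, and CAST has 38 coding transcripts. With the longest coding transcript as the length, CAPNS1 took 41.2% and CAST 34.8% in the libraries labelled siCTRL. The ranges of CAPNS1 and CAST then overlapped, with 39.3% and 39.9% in replicate 4, whereas those of CAPN1 and CAPN7 did not.

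**Figure D3:**
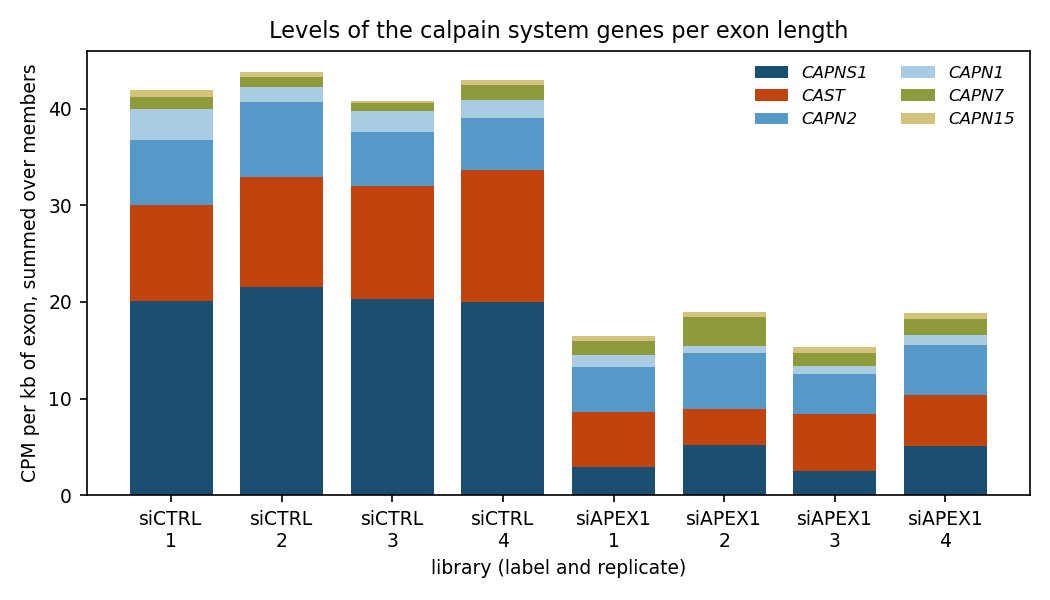
Stacked CPM per kb of exon of the 6 genes in each of the 8 libraries. The dark blue part, CAPNS1, is the tallest in every library labelled siCTRL and in none labelled siAPEX1.

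Ratios of counts within a library do not depend on its depth or scaling. Per count of the catalytic subunits CAPN1 and CAPN2 together, CAPNS1 had 0.765, 0.857, 0.978 and 1.03 counts in replicates 1 to 4 labelled siCTRL and 0.186, 0.294, 0.193 and 0.308 in those labelled siAPEX1. The means were 0.907 ± 0.119 and 0.245 ± 0.0645 (SD, n = 4 each), and the groups did not overlap. Within these libraries the regulatory subunit was thus lower relative to its own partners and not only relative to the library. Per count of CAST, CAPNS1 had 0.414 ± 0.0557 and 0.194 ± 0.108 counts (SD, n = 4 each), with all libraries labelled siAPEX1 at or below 0.333 and all labelled siCTRL at or above 0.340.

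The inhibitor relative to the catalytic subunits was less clearly apart. CAST per count of CAPN1 and CAPN2 was 2.25 ± 0.604 in the libraries labelled siCTRL and 1.44 ± 0.431 in those labelled siAPEX1 (SD, n = 4 each), and the ranges, 1.63 to 3.02 and 0.882 to 1.91, overlapped. CAPN1 per count of CAPN2 was 0.306 ± 0.105 and 0.168 ± 0.0549 (SD, n = 4 each), with overlap as well. These ratios share their genes with the contrast that chose the members and were not tested.

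Other calpains had few counts in these libraries. So had the member CAPN15, with totals of 30 counts labelled siCTRL and 23 labelled siAPEX1. Of 11 further family genes listed, none passed the filter on low counts, 6 were at 0 in every library (CAPN3, CAPN6, CAPN9, CAPN11, CAPN13 and CAPNS2, the last a second small subunit gene), and 2 had under 10 counts in all. CAPN12 had 11, 10, 15 and 9 counts in the libraries labelled siCTRL and 4, 4, 5 and 6 in those labelled siAPEX1. Its groups did not overlap, but its log2 fold change in the fit to 22272 genes was −0.67 (SE 0.398, 95% interval −1.45 to 0.11). CAPN5 totalled 28 and 14 counts and CAPN10 15 and 6, with intervals of −1.37 to 0.52 and −2.09 to 0.64. The penta-EF-hand relatives of the small subunit, SRI and PDCD6, were tested and passed neither threshold, with log2 fold changes of 0.05 (95% interval −0.49 to 0.59) and 0.18 (−0.25 to 0.62).

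Of the 87 genes in 7 lists of genes linked to calpains, 60 were tested, of which 4 passed both thresholds, all lower, and a further 17 met the limit on adjusted p only, 6 of them higher and 11 lower. Over all genes tested, 9.28% passed both thresholds and 31.7% met the limit on adjusted p. The median log2 fold change of the listed genes was −0.01, beside −0.0035 for all genes tested. By list, among 15 cytoskeletal and adhesion substrates FLNA, an actin crosslinker and calpain substrate, fell by 1.05 on the log2 scale (SE 0.114, edgeR adjusted p = 8.34e-10). It had 201 to 326 counts per library labelled siCTRL and 78 to 95 per library labelled siAPEX1. Without siCTRL replicate 1 its log2 fold change was −0.969, and without siAPEX1 replicate 1 −0.998, both short of the threshold. CDH1, E-cadherin, had a log2 fold change of 0.92 (edgeR adjusted p = 0.000245), PXN, the focal adhesion adaptor paxillin, one of −0.85 (edgeR adjusted p = 0.00433), and ACTN1, an actin crosslinker, one of −0.69 (edgeR adjusted p = 2.05e-05). The median of the list was −0.02, and 8 of the 15 passed neither threshold.

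Among 13 signalling substrates, 11 tested, MARCKS, an actin-binding substrate of protein kinase C, fell by 1.01 on the log2 scale (SE 0.124, edgeR adjusted p = 1.34e-08), with 132 to 160 and 38 to 55 counts. Its call was lost without siCTRL replicate 2 (−0.995), siAPEX1 replicate 1 (−0.991) or siAPEX1 replicate 4 (−0.914). FOS was at 0.995 on the log2 scale (SE 0.121, edgeR adjusted p = 1.11e-08), with 66 to 90 and 88 to 104 counts, and JUN at 0.75 (SE 0.150, edgeR adjusted p = 1.03e-04), and in CPM the groups did not overlap for either. The list's median was 0.08. Of the members with an AP-1 motif in a promoter window, CAPNS1 (−2.38) and CAST (−1.17) were called lower and CAPN2 (−0.38) was not called. CAPN1 (−1.24), without the motif in its windows, was called lower too. Whether FOS or JUN bear on any of them was not tested.

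Among 13 genes of the ESCRT machinery, which CAPN7 is known to contact, 12 were tested and none passed both thresholds. VPS4B was at 0.70 (edgeR adjusted p = 0.0408) and CHMP2B at −0.38 (edgeR adjusted p = 0.0438) on the log2 scale, and the median was 0.15. The adjusted p of VPS4B was above 0.05 in 11 of 14 alternative fits and that of CHMP2B in 6 of 15. Of 16 genes of calcium handling, 11 were tested. ATP2C1, a Golgi calcium and manganese pump, fell by 1.38 on the log2 scale (SE 0.319, edgeR adjusted p = 7.52e-04), with 19 to 24 and 3 to 9 counts. Like CAPN1, it passed the filter on low counts through the group in which it was higher. ITPR3, a calcium release channel, was at −0.96 (edgeR adjusted p = 0.0118), with 16 to 28 and 6 to 8 counts. ITPR3 passed the filter in the same way, through the group in which it was higher. ATP2A2, a pump of the endoplasmic reticulum, was at −0.58 (edgeR adjusted p = 6.59e-05) and ATP2B1, a plasma membrane pump, at 0.46 (edgeR adjusted p = 1.83e-04). The adjusted p of ITPR3 was above 0.05 in 2 of 14 alternative fits, and that of ATP2B1 was 0.335 with scaling by library size only. The median was −0.20.

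Of 16 other cysteine proteases and their inhibitors, 9 were tested. CASP4, an inflammatory caspase, fell by 1.94 on the log2 scale (SE 0.389, edgeR adjusted p = 1.21e-04), with 14 to 22 and 1 to 5 counts, and it too passed the filter through the group in which it was higher. CSTB, an inhibitor of cathepsins, was at −0.89 (edgeR adjusted p = 3.79e-04), XIAP, an inhibitor of caspases, at −0.65 (edgeR adjusted p = 0.00216) and CTSZ, a cathepsin, at −0.62 (edgeR adjusted p = 0.0474). The adjusted p of CTSZ was above 0.05 in 11 of 14 alternative fits. The median of this list, −0.62, was lower than that of all genes tested. No test of the list was made.

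**Figure D4:**
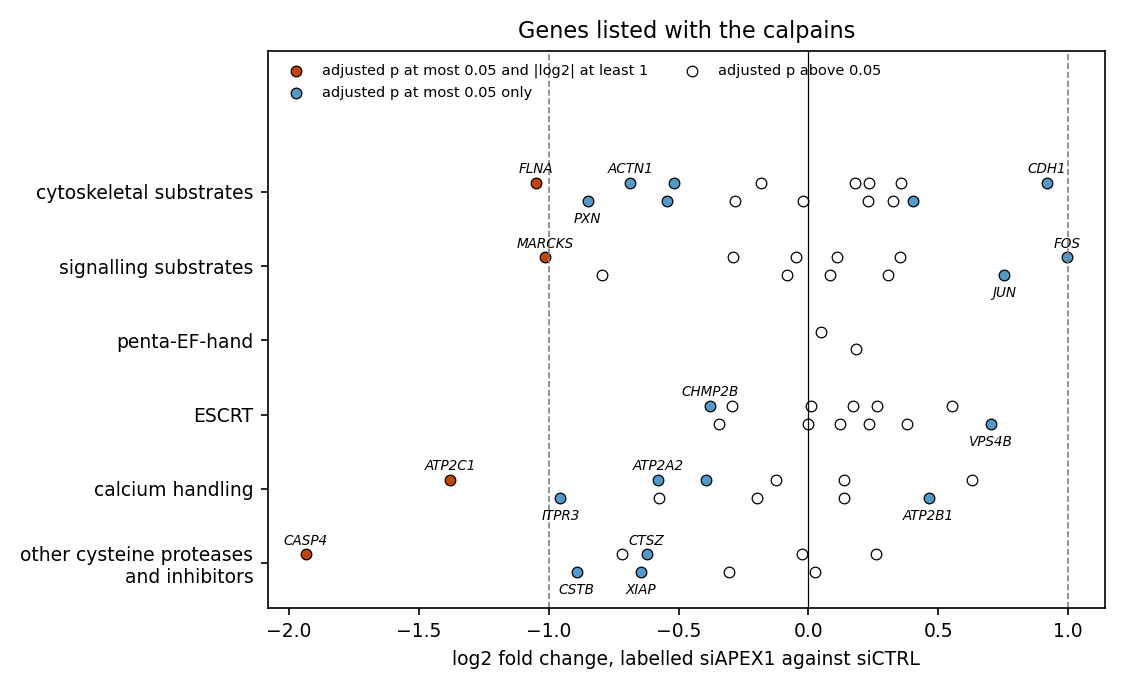
Each point is 1 tested gene of a list, placed by its log2 fold change between libraries labelled siAPEX1 and siCTRL, with dashed lines at 1 and −1. Orange points (FLNA, MARCKS, ATP2C1 and CASP4) passed both thresholds, blue points the adjusted p alone, and the other points neither.

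The genes whose profile over the 8 libraries was most like that of a member were named by the root-mean-square distance between log2 CPM values, each centred on its own mean. Nearest to CAPNS1 were DMKN (distance 0.202), MUC16 (0.280) and CRELD2 (0.325), and its median distance to all genes was 1.22. DMKN and MUC16 were at 7.16 and 7.02 CPM in the libraries labelled siCTRL and at 0.803 and 0.806 in those labelled siAPEX1. Both thus passed the filter on low counts through the group in which they were higher. Their log2 fold changes were −3.06 and −3.03, beside −2.38 for CAPNS1. At such low counts the prior count of 2 narrows differences in log2 CPM, so their small distances depend on it. CRELD2 was at 37.4 and 8.88 CPM. Nearest to CAPN1 were EMP3 (0.170), C19orf33 (0.211) and ARL6IP5 (0.216), against a median of 0.700. For CAPN2 they were EMC4 (0.0856), MIR342 (0.0972) and CXCL1 (0.107), against 0.417, and for CAST MFSD6 (0.124), SFMBT2 (0.147) and SCCPDH (0.154), against 0.685. The libraries of a group share their label, so such likeness follows the contrast first.

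Since the study was about miRNAs, the 3′UTR of the canonical transcript of each member was searched for matches to the seed (bases 2 to 8) of the miRNAs of the study's signature. RefSeq held 12 of the 13. The seed of miR-33a-5p matched none of the members, and 8.4% of 19289 3′UTRs held it. Those of miR-1246, miR-183-5p, miR-218-5p, miR-376c-3p, miR-543 and miR-92b-3p matched none either. The seed of miR-4488 matched CAPNS1, CAPN1 and CAPN15, the most members of any of the 12 searched, and 5.7% of 3′UTRs held it. All its sites are shown with the miRNA, capitals marking the seed and its match. CAPNS1 and CAPN1 had 1 site each and were called lower. CAPN15 had 2 sites but too few counts to be tested with them. In the fit to 22272 genes its log2 fold change was 0.17, with an interval of −0.64 to 0.99. The number of sites can therefore not be set against the direction here.
hsa-miR-4488: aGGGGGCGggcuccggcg
CAPNS1, chr19:36149841-36149870: ctggagccccagaccCGCCCCCtcactgcc
CAPN1, chr11:65211762-65211791: ctgcgccgaagccaaCGCCCCCtctgtcct
CAPN15, chr16:553655-553684: ttcccatgggcccccCGCCCCCctccttcc
CAPN15, chr16:554374-554403: gcagcgggccggcctCGCCCCCactccccc
The seed of miR-130b-3p matched CAST at 2 places, in its 3′UTR of 2067 bases, and 13.9% of 3′UTRs held it.
hsa-miR-130b-3p: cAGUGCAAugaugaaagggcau
CAST, chr5:96773511-96773540: ttgccacattagcctTTGCACTgtatagcg
CAST, chr5:96773704-96773733: aatagttcctgaacaTTGCACTgatatcat
CAST also matched miR-200c-3p, and CAPN15 miR-24-3p and miR-146a-5p. The miRNA genes had few counts: MIR4488 had 0 to 2 in the libraries labelled siCTRL and 2 to 5 in those labelled siAPEX1, and MIR130B had 24, 26, 31 and 18 against 12, 9, 3 and 6. In CPM the nearest MIR130B values were 9.96 (siCTRL replicate 4) and 9.88 (siAPEX1 replicate 1). MIR200C had 1, 3, 9 and 4 against 0, 1, 3 and 5 counts, and its groups overlapped. A match is a description of the letters, and whether these miRNAs act on the members was not tested.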

How the data were processed

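RNA-seq of A549 cells, 4 libraries labelled siCTRL and 4 labelled siAPEX1, was used as the raw counts per gene the authors deposited. Per the labels and the study's methods, reads were aligned to GRCh38 with STAR 2.5.3a and counted on an Ensembl annotation, whose release and strand setting are not given in the sources used here. Groups were taken from the sample titles. The column of siCTRL replicate 3 differs from the title in the number that opens it and was matched by the rest of the name. Of 58302 genes, 57532 matched GENCODE 44, from which symbols, exon lengths and coordinates came.

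Counts were tested with edgeR 4.0.16 (R 4.3.3; TMM factors, filterByExpr at its minimum count, 10, and minimum total, 15, quasi-likelihood test, Benjamini-Hochberg adjustment over 5368 genes). A call needs a log2 fold change of 1 or more in size and an adjusted p no higher than 0.05. Standard errors are the log2 fold change over the square root of F. Of 200 genes changed by a log2 of 2 in simulated data on 5368 genes, 183 were recovered, with 0 false calls. Recovery of changes near the threshold of 1 was not tested. DESeq2 1.42.0 was an alternative. CPM use TMM-scaled library sizes, and log2 CPM a prior count of 2. Promoter windows and miRNAs are those of RefSeq (GRCh38.p14). Motifs were picked after the results were seen. No 2 libraries agreed within sampling noise.

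The members and lists were chosen with earlier results of these data known. The genes named are all members, every gene of the 7 lists past both thresholds, the 3 with the largest change of those past the adjusted p only, the 3 genes nearest in profile to CAPNS1, CAPN1, CAPN2 and CAST, the genes that overlap a member, and APEX1. MIR4488, MIR130B and MIR200C, the untested or uncalled genes named from the lists of other calpains and penta-EF-hand proteins, and the cell type markers with their values were added after values were seen.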

Additional observations from a re-analysis of the deposited data

Results flagged for a closer look

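In the libraries labelled siAPEX1, CAPN7 made up 16.1% of the summed CPM per kb of the 6 members in replicate 2 and 8.94% to 9.21% in the other 3 replicates, a library far from the rest of its group. Of 34 groups of 4 values examined, 1 was flagged in this way, and chance flags about 1 group in 20.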

How the results depend on the processing

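CAPNS1 and CAST stayed called lower under every alternative run, with log2 fold changes from −2.72 to −2.17 and from −1.51 to −1.02. CAPN1 (−1.58 to −0.995) lost its call without siCTRL replicate 1 and was left out by the filter that asked every library for 10 counts. CAPN2 ranged from −0.72 to −0.27 and CAPN7 from 0.34 to 0.83. The calls numbered 498 over all genes and 4 over the lists. With a filter of at least 1 count they were 943 over all genes, with at least 10 in every library 181 and 2, and at a threshold of 0.75 they were 935 and 10. Scaling by library size only moved the median of all genes to −0.34, gave 10 calls in the lists, and split calls into 84 higher and 655 lower against 193 and 305. Leaving out 1 library gave 528 to 603 calls over all genes, 2 to 3 of the members and 3 to 6 over the lists. MARCKS, called lower, was at −0.971 with TMM factors from protein-coding genes without APEX1 and mitochondrial genes. FOS, at 0.995, passed both thresholds with RLE factors (1.001), DESeq2 (1.002) and in other fits. Over the values of single members and named genes, 300 kept their direction and their side of the combined thresholds, 17 newly passed them, 7 no longer did and 0 reversed. On adjusted p alone, 31 of 250 values of the 17 named list genes were above 0.05, all of VPS4B, CTSZ, CHMP2B, ITPR3 or ATP2B1 (DESeq2 gave 0.147, 0.177, 0.175 and 0.0642 for the first 4). With the longest coding transcript as length, the shares of CAPNS1 and CAST in libraries labelled siCTRL were 41.2% and 34.8%. Deviations of same-numbered libraries correlated from −0.0373 to −0.0035 and none best with its own number. No pairing by number was seen, but with counts this low the check cannot exclude one. With a replicate block 494 genes, 3 members and 4 listed genes were called. CAPN15 and the other calpains were under the filter on low counts, and none was called in the fit to all genes with a count.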
